A study of Mus musculus with 85 samples.

Results

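Microglia sorted from mouse embryonic brains were compared between a neural knockout of Mof (Mof nKO) and Cre controls at embryonic stage E14.5. The 3 Mof nKO libraries were M643, M646 and M689 and the 3 Cre control libraries were Cre203, Cre204 and Cre206. They were chosen by their labels and by the columns of the microglial table, and they are 6 of the 85 samples of a series on brains that lack Mof, Kansl2 or Kansl3. These 3 genes encode members of the NSL chromatin complex, and the series also holds whole brains and sorted neural cells, endothelial cells and pericytes. The deletion was driven by Cre under the Nestin promoter, which is active in neural progenitors. The control brains are labelled Cre control, with no deletion named. The labels state neither strain nor sex nor which exons were deleted. Cells were isolated by flow sorting with a method the labels call EMBRACE, and cDNA was made with the SMART-Seq v4 low-input kit before Nextera XT libraries. The labels do not say how many embryos or cells went into a library. The p-values therefore measure the spread between these libraries, which may be technical.

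Microglia are the resident macrophages of the brain and arise from yolk-sac progenitors that enter the embryonic brain, outside the lineage in which Nestin drives Cre there. They depend on the receptor CSF1R, and in the healthy brain they carry a homeostatic profile that includes the purinergic receptor P2ry12, Tmem119 and the transcription factor Sall1. Microglia that engulf dying cells lower that profile and raise genes such as Apoe, Spp1 and Lgals3, while monocytes and neutrophils of the blood are marked by other genes, among them Ccr2 and S100a8. MOF, encoded by Kat8, is the catalytic subunit of the NSL and MSL complexes and acetylates histone H4.

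The Mof nKO libraries stood apart from the Cre control libraries in technical measures before any gene was compared. Reads assigned to genes were 7151026 in M643, 4806550 in M646 and 2215701 in M689, against 7893551, 8504146 and 9817084 in the Cre control libraries. At an equal depth of 2215701 reads, 13850, 11266 and 12505 genes had a read in the Mof nKO libraries, against 17173, 15624 and 16179 in the Cre controls, and the groups did not overlap. Mitochondrial genes took 16.5%, 15.2% and 5.54% of Mof nKO reads, against 6.27%, 6.43% and 4.41% of Cre control reads. The ribosomal RNA loci Gm42418 and Rn18s-rs5 took 18.5% of the reads of M689, against at most 3.73% in the other 5 libraries. Rank correlations over the genes tested were 0.502 to 0.650 between Mof nKO libraries and 0.919 to 0.931 between Cre control libraries. The sexes also differed: all 3 Mof nKO libraries had Ddx3y and little Xist, as did Cre204, whereas Cre203 and Cre206 had high Xist, at 10010 and 4333 normalized counts. The part of depth, RNA quality and sex in the differences below was not tested beyond the values given.

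**Figure D1:**
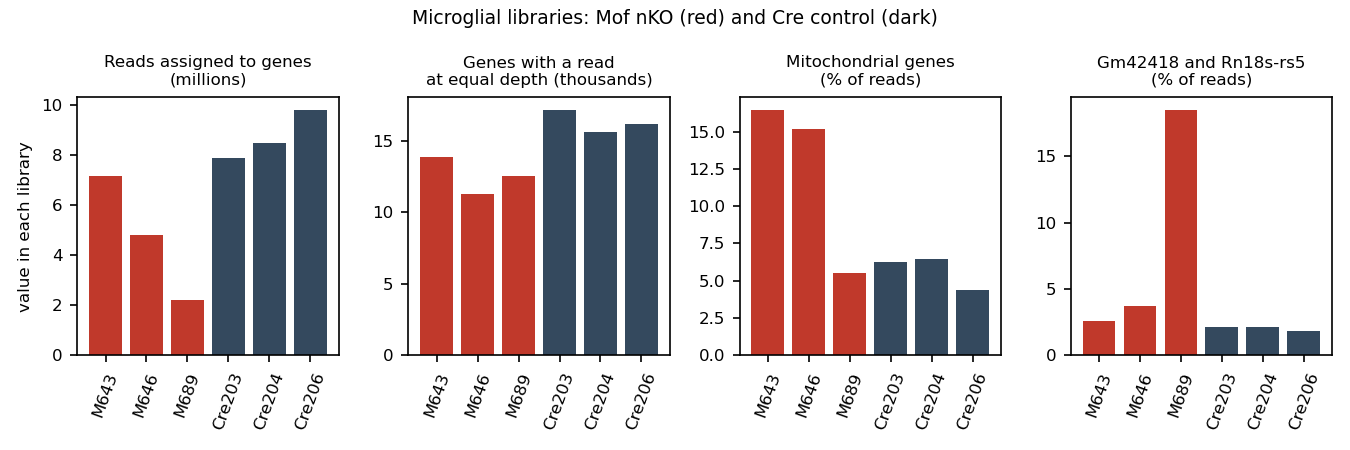
Each bar is 1 microglial library, with Mof nKO in red and Cre control in dark blue, and the panels give the reads assigned to genes, the genes with a read at equal depth, and the percentage of reads on mitochondrial genes and on Gm42418 and Rn18s-rs5. The 3 Mof nKO libraries have fewer reads and fewer genes than any Cre control library, M643 and M646 have the highest mitochondrial shares, and M689 has 18.5% of its reads on the ribosomal RNA loci.

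With this spread, no gene passed the main test. Limma on log2(normalized count + 1) called 0 of 13141 genes with a mean of at least 10 normalized counts at an adjusted p under 0.05, and the smallest adjusted p was 0.188. An unadjusted p under 0.05 was reached by 1341 genes (10.2%), of which 322 were higher (2.45%) and 1019 lower (7.75%) in Mof nKO microglia. EdgeR's quasi-likelihood test on the recovered reads also called 0 genes, with 1123 at an unadjusted p under 0.05. DESeq2 called 176 genes higher and 553 lower, and the authors' deposited table calls 178 and 557. Among the genes tested by limma, the DESeq2 calls were 1.32% higher and 3.84% lower. All 3 Mof nKO libraries lay above all 3 Cre controls for 752 genes (5.72%) and below them for 1570 (11.9%), and these shares are the background for the counts below. Among 9370 genes with a mean of at least 50 normalized counts they were 7.08% and 8.1%. The median log2 fold change of all genes was -0.50 in limma, against -0.03 in edgeR with TMM scaling, 0.14 in edgeR with relative log size factors and 0.0064 in DESeq2, which fit counts and so differ from limma in model as well as in scaling. With libraries centred on their medians it was -0.11 in limma, and list medians below are limma's, read beside -0.50. Sorted endothelial cells and pericytes, made with the same kit, likewise had 0 genes past limma's threshold, with 1482 and 1888 genes at an unadjusted p under 0.05.

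The targeted gene did not separate the groups in sorted microglia. Kat8 had 124, 0 and 32.8 normalized counts in M643, M646 and M689, against 70.4, 57.8 and 95.5 in Cre203, Cre204 and Cre206. The ranges overlapped, with 1 Mof nKO library above all Cre controls and 1 at 0 (log2 fold change -2.19 ± 1.82 SE, limma adjusted p = 0.718). In sorted neural cells, where Nestin drives Cre and where 3 libraries also bear the names M643, M646 and M689, Kat8 had 84.2, 101 and 97.2 normalized counts in Mof nKO cells, against 267, 238 and 256 in Cre control cells. There it fell by 1.42 ± 0.12 on the log2 scale (limma adjusted p = 9.34e-08). It fell by 0.94 ± 0.13 in whole Mof nKO brains (edgeR adjusted p = 0.00234). Of the 9 NSL members tested, the groups in microglia did not overlap for Phf20 alone, a subunit that reads methylated histones. Phf20 had 101, 78.2 and 75.5 normalized counts in Mof nKO microglia, against 457, 378 and 288 in Cre control microglia (log2 fold change -2.11 ± 0.60, limma adjusted p = 0.241, DESeq2 adjusted p = 0.00746). Kansl2 and Kansl3, the other subunits deleted in the series, overlapped between the groups. Their fold changes of -0.17 ± 0.90 and -1.27 ± 1.37 changed sign under other settings (Kansl2 to 0.35 with DESeq2, Kansl3 to 0.28 without M646).

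The sorted cells of both groups carried genes of microglia and macrophages. Csf1r, the receptor for colony-stimulating factors on which microglia depend, had 7758, 6171 and 2894 normalized counts in Mof nKO microglia, against 11232, 5731 and 6326 in Cre control microglia. Tyrobp and Laptm5, a signalling adaptor and a lysosomal membrane protein of haematopoietic cells, differed by -0.22 ± 0.29 and -0.13 ± 0.23 on the log2 scale and turned to 0.16 and 0.25 when libraries were centred on their medians. All 14 microglia and macrophage markers passed the filter on low values, and their median log2 fold change was -0.22, against -0.50 over all genes. Of the 14, 2 lay above every Cre control library and 4 below, against 5.72% and 11.9% of all genes tested. The 4 lower genes were Cx3cr1 and the C1q chains C1qa, C1qb and C1qc. The list took 0.820%, 0.767% and 0.546% of reads in M643, M646 and M689, against 1.46%, 1.17% and 1.35% in the Cre control libraries. The groups did not overlap in this share, and the exact 2-sided permutation p was 0.1, the smallest that 3 against 3 allows. In bulk libraries, fewer cells of a type and less RNA per cell cannot be told apart.

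Most homeostatic genes were lower in Mof nKO microglia. Of the 16 homeostatic genes described here, which passed the filter on low values, 11 lay below every Cre control library, against 11.9% of all genes tested. The median log2 fold change of these genes was -1.61, against -0.50 over all genes. Their summed share of reads was 0.315% ± 0.113 in Mof nKO microglia and 0.896% ± 0.103 in Cre control microglia (SD, n = 3 each, exact permutation p = 0.1). This share is not particular to microglia, as its mean was 0.663% in sorted endothelial, 0.207% in sorted pericyte and 0.0368% in sorted neural Cre controls. With DESeq2, Siglech and Sparc passed (2 lower, 0 higher), but 0 of the list passed without Cre203, Cre204 or Cre206, and 3 to 5 did without 1 Mof nKO library. Without each library in turn the list median ran from -2.10 to -1.15, against -0.65 to -0.29 over all genes.

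Siglech, a sialic acid-binding receptor found on microglia and plasmacytoid dendritic cells, was among the best separated. It had 336, 88.2 and 299 normalized counts in Mof nKO microglia, against 2357, 2062 and 2124 in Cre control microglia. The highest Mof nKO library was thus far below the lowest control (log2 fold change -3.39 ± 0.57, limma adjusted p = 0.188, DESeq2 adjusted p = 0.0013). Sparc, a secreted matricellular protein, had 957, 644 and 219.8 normalized counts in Mof nKO microglia, against 6616, 3986 and 3672 in Cre control microglia (log2 fold change -3.16 ± 0.57, DESeq2 adjusted p = 0.00687). Sall1, the zinc finger factor that keeps microglia in their homeostatic state, had 108, 27 and 0 normalized counts in Mof nKO microglia, against 559, 682 and 677 in the controls. Every Mof nKO library was lower, with a wide error (log2 fold change -5.46 ± 1.63, DESeq2 adjusted p = 0.0619). The fructose transporter Slc2a5 had 82.3, 0 and 19.7 normalized counts in Mof nKO microglia, against 569, 477 and 332 in the controls.

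Other classical homeostatic genes had smaller fold changes. The Fc receptor-like gene Fcrls had 3599, 3303 and 1640 normalized counts in Mof nKO microglia, against 9385, 6865 and 7422 in Cre control microglia (log2 fold change -1.54 ± 0.35, limma adjusted p = 0.188). Each Mof nKO library was below each control, and M689 was the lowest. P2ry12, the receptor that guides microglial processes to ATP, had 3012, 2794 and 249 normalized counts in Mof nKO microglia, against 6521, 4968 and 5720 in the controls. Its gap was widest in M689, as was that of Gpr34, a lysophospholipid receptor, at 1283, 2502 and 91.9 against 2038, 1361 and 1612. Gpr34 overlapped between the groups and had a log2 fold change of -1.30 ± 1.10, which turned to 0.12 without M689. Tmem119, a microglial membrane protein, had 722, 655 and 207 normalized counts in Mof nKO microglia, against 1507, 1570 and 1393 in the controls.

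**Figure D2:**
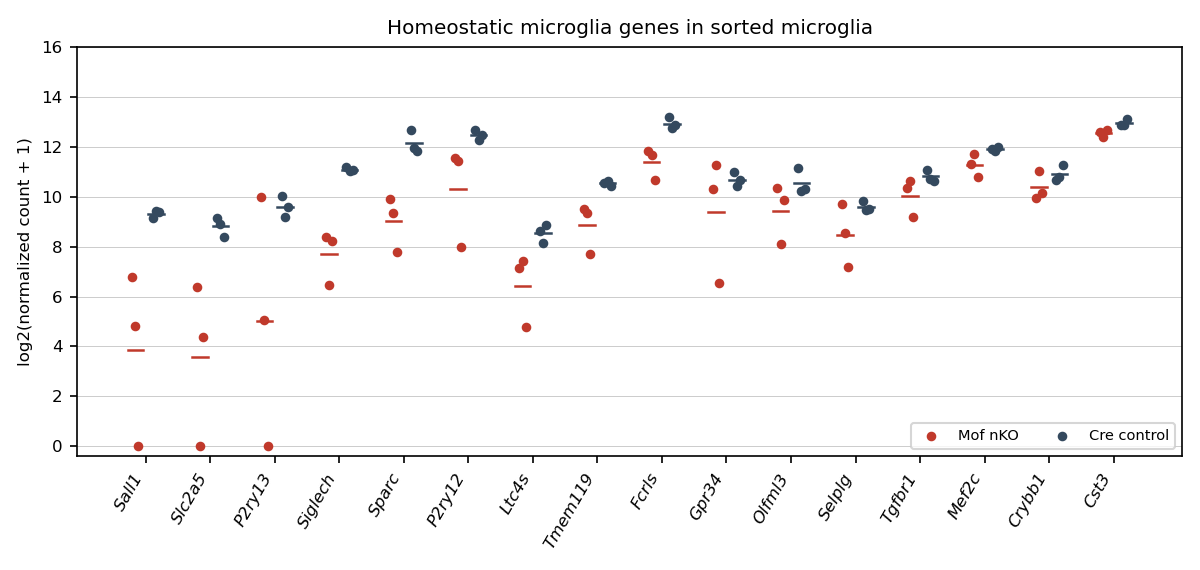
Each point is 1 library and each short line a group mean, on log2(normalized count + 1), for 16 homeostatic genes ordered by their log2 fold change, with Mof nKO (red) left of Cre control (dark blue). Siglech and Sparc are separated with reads in every library, and Sall1, Slc2a5 and P2ry13 reach 0 in 1 Mof nKO library.

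Genes of monocytes and neutrophils ran the other way. Of the 14 listed genes, 12 passed the filter on low values, and 9 of these lay above every Cre control library, against 5.72% of all genes tested, while 0 lay below. DESeq2 called 9, all higher, and the median log2 fold change of the 12 was 3.59. Together the list took 0.0852%, 0.165% and 0.143% of reads in M643, M646 and M689, against 0.0170%, 0.0154% and 0.0160% in the Cre control libraries. The mean share was 8.12-fold higher in Mof nKO microglia (exact permutation p = 0.1), and the lowest Mof nKO library was above the highest control. The same list took 0.0548% to 0.146% of reads in sorted endothelial Cre controls. Its mean was 0.0367% in sorted pericyte and 0.0357% in sorted neural Cre controls. Without Cre203, Cre204 and Cre206 in turn, DESeq2 called 6, 5 and 4 of the list, and without M643, M646 and M689 it called 9, 7 and 9, all higher.

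Neutrophil genes were among those with the largest fold changes in this list. S100a8, which forms calprotectin with S100a9, had 770.0, 2032 and 3412 normalized counts in Mof nKO microglia, against 82.9, 110.5 and 162 in Cre control microglia (log2 fold change 3.93 ± 0.65, limma adjusted p = 0.188, DESeq2 adjusted p = 6.84e-05). S100a9 had 261, 828 and 3478 normalized counts in Mof nKO microglia, against 59.8, 37.0 and 51.7 in the controls. Both were highest in M689, the shallowest library, and higher in M643 and M646 than in every control. Camp, the cathelicidin precursor, had 97.1, 414 and 305 normalized counts in Mof nKO microglia, against 10.6, 1.74 and 2.49 in the controls (log2 fold change 5.59 ± 1.22, DESeq2 adjusted p = 1.36e-05). Lactotransferrin, Ltf, had 219, 445 and 610.3 normalized counts, against 35.5, 24.3 and 10.9 in the controls, and neutrophilic granule protein, Ngp, had 199, 997 and 325 against 40.5, 0 and 14.4. Mpo and Elane, the enzymes of primary granules, did not follow. Mpo had 0, 136 and 45.9 normalized counts in Mof nKO microglia, against 142.1, 186 and 100.4 in the controls, and Elane was read in M643 alone. Chil3, another gene of monocytes and neutrophils, was at 0 in all 6 libraries.

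Monocyte genes were also higher. Ccr2, the chemokine receptor that brings monocytes into tissue, had 1728, 4332 and 1280 normalized counts in Mof nKO microglia, against 225, 192 and 249 in Cre control microglia (log2 fold change 3.26 ± 0.53, limma adjusted p = 0.188, DESeq2 adjusted p = 0.000303). Ly6c2, which marks classical monocytes, had 154, 587 and 45.9 normalized counts in Mof nKO microglia, against 34.3, 7.52 and 28.3 in the controls. The highest Ly6c2 value stood in M646, the library with the highest Ccr2. Plac8 had 888, 835 and 637 normalized counts in Mof nKO microglia, against 131, 188 and 122 in the controls (DESeq2 adjusted p = 0.000897). Fibronectin, Fn1, had 555, 682 and 217, against 67.3, 4.63 and 24.9. The groups did not overlap for any of these 4 genes.

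The promoter of S100a8 is printed because the gene had among the clearest separations of the list. It is the RefSeq window from 250 bases before to 50 after the start, on GRCm38.p6, plus strand, chr3:90668821-90669120. Capitals mark a TATA box, searched as TATAAA, at position -30 from the RefSeq start, and a core site of the macrophage and neutrophil factor PU.1, searched as GAGGAAGT on both strands and found on the other strand at position -172.
S100a8: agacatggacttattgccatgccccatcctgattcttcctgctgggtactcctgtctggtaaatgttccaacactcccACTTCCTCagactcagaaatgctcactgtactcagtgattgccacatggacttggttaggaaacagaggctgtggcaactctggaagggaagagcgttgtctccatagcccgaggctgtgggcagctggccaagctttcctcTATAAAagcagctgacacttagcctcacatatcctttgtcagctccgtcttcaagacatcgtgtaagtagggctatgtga
Of all 32851 RefSeq promoter windows, 13.6% held TATAAA and 3.2% held GAGGAAGT on either strand. Of 13 listed monocyte and neutrophil genes with a window, 3 held TATAAA and 4 held GAGGAAGT. The 4 were S100a8 and Ly6c2, which were separated, and Mpo and Elane, which were not. S100a9, Camp, Ltf, Ngp, Ccr2 and Plac8 were separated and did not hold GAGGAAGT. None of the 13 homeostatic genes with a window held GAGGAAGT. These matches describe letters in the windows and not bound sites.

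**Figure D3:**
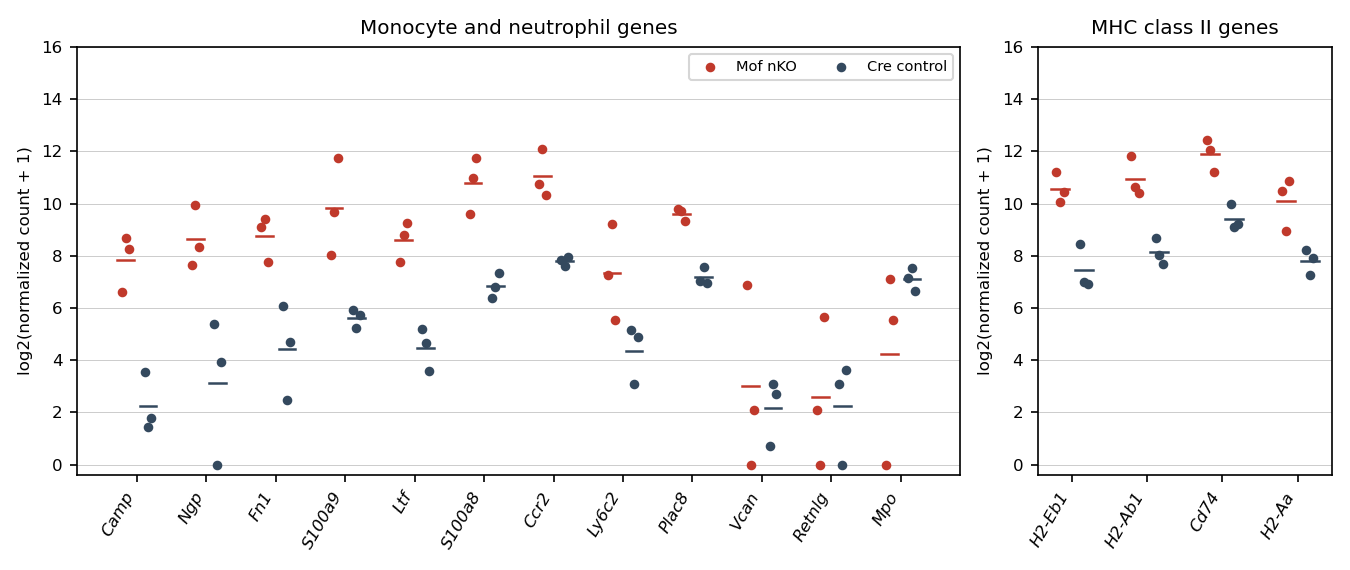
Each point is 1 library and each short line a group mean, on log2(normalized count + 1), for the 12 monocyte and neutrophil genes that passed the filter (left) and 4 MHC class II genes (right), with Mof nKO (red) left of Cre control (dark blue). The Mof nKO libraries lie above the controls for the first 9 genes of the left panel and for all 4 of the right panel, while Vcan, Retnlg and Mpo overlap.

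Antigen presentation genes of MHC class II were higher in Mof nKO microglia. Of 13 MHC genes tested, 6 lay above every Cre control library and 0 below, with a median log2 fold change of 0.88 against -0.50 over all genes. DESeq2 called 4, all higher, and these were the class II chains H2-Aa, H2-Ab1 and H2-Eb1 and the invariant chain Cd74. Without Cre203, Cre204 and Cre206 in turn it called 1, 0 and 0 of the list, and without 1 Mof nKO library 3 or 4. H2-Ab1 had 3614, 1574 and 1342 normalized counts in Mof nKO microglia, against 412, 262 and 203.4 in Cre control microglia (log2 fold change 2.81 ± 0.52, limma adjusted p = 0.188, DESeq2 adjusted p = 0.00362). H2-Eb1 had 2368, 1064 and 1388 normalized counts in Mof nKO microglia, against 346, 128 and 120.3 in the controls. H2-Aa had 1432, 488 and 1883 normalized counts in Mof nKO microglia, against 299.8, 154 and 238 in the controls. Cd74, which chaperones class II chains, had 5584, 4207 and 2382 normalized counts, against 1009, 542 and 589 in the controls (log2 fold change 2.48 ± 0.43, DESeq2 adjusted p = 0.00687). All 4 genes were separated, and M643 was the highest library for H2-Ab1, H2-Eb1 and Cd74. The other 2 separated genes were the peptide transporter Tap1 and the immunoproteasome subunit Psmb9, with log2 fold changes of 1.81 ± 0.86 and 0.88 ± 0.53.

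Class II genes are read together by the co-activator CIITA, which is held at their promoters by factors bound to the X and Y boxes, so the RefSeq windows of H2-Aa (minus strand, chr17:34287774-34288073) and H2-Eb1 (plus strand, chr17:34305617-34305916), on GRCm38.p6, are printed. Capitals mark the Y box, searched as CTGATTGG on both strands, and an X box, searched as AGCAACNGA on both strands.
H2-Aa: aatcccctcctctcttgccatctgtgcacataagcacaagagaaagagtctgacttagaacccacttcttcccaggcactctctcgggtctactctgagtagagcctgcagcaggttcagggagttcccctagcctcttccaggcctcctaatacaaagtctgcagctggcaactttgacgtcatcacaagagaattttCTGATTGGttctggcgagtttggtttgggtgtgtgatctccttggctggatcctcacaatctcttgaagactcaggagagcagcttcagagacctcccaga
H2-Eb1: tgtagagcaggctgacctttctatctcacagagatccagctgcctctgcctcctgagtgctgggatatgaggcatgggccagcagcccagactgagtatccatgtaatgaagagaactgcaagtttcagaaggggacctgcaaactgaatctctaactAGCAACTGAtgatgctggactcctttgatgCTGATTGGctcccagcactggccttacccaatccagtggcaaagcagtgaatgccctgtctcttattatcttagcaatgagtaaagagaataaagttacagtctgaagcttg
The Y box began at position -51 in H2-Aa and -62 in H2-Eb1, and the X box at -92 in H2-Eb1. Of all windows, 4.1% held the Y box and 1.34% the X box. Of 9 listed MHC genes with a window, 6 held the Y box and 1, H2-Eb1, the X box. Holders of the Y box were H2-Aa, H2-Eb1, Tap1 and Psmb9, which were separated, and H2-K1 and H2-D1, which were not. The search with these letters returned no X box in H2-Aa. Ciita itself was not called by the authors, with a deposited log2 fold change of -0.98 ± 1.63 (DESeq2 adjusted p = 0.911). A part of CIITA in the class II values was not tested.

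Some interferon genes were higher too. Of 19 interferon response genes tested, 4 lay above every Cre control library and 2 below, and DESeq2 called 2, both higher, but 1 without Cre203, Cre204 or Cre206. Oasl2, an interferon-induced antiviral protein, had 357, 446 and 610.3 normalized counts in Mof nKO microglia, against 48.0, 23.1 and 45.7 in Cre control microglia (log2 fold change 3.60 ± 0.71, limma adjusted p = 0.188, DESeq2 adjusted p = 1.36e-05). Ifitm3, which blocks viral entry and is also high in blood myeloid cells, had 1185, 1656 and 538 normalized counts, against 163, 204.2 and 237 in the controls. Irf7, the factor that amplifies interferon, had 414, 384 and 525 normalized counts in Mof nKO microglia, against 60.5, 80.4 and 174 in the controls. These 3 genes were separated between the groups, but the list as a whole had a median log2 fold change of 0.14.

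Genes of activated microglia split. Of 19 tested, 4 lay above every Cre control library and 6 below, and the median log2 fold change was 0.00. DESeq2 called 1, Lgals3, and 0 without Cre203, Cre204 or Cre206. Lgals3, the galectin of phagocytes, had 2418, 2501 and 1752 normalized counts in Mof nKO microglia, against 322, 213 and 431 in Cre control microglia (log2 fold change 2.82 ± 0.42, limma adjusted p = 0.188, DESeq2 adjusted p = 0.000318). Lysozyme, Lyz2, had 18027, 22227 and 3596 normalized counts in Mof nKO microglia, against 3139, 2856 and 3205 in the controls. It was several times higher in M643 and M646 and just above the controls in M689, and it is abundant in monocytes and neutrophils as well. Lyz2 had a log2 fold change of 1.88 ± 0.63, and it was the single gene past the threshold, at an adjusted p of 0.0408, in limma without M689.

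The activated genes that were lower included Apoe, a lipid carrier, and Trem2, the receptor for lipids and cell debris. Apoe had 24149, 21428 and 11638 normalized counts in Mof nKO microglia, against 46628, 35054 and 37938 in Cre control microglia (log2 fold change -1.12 ± 0.29, limma adjusted p = 0.208). Trem2 had 1685, 859 and 712 normalized counts in Mof nKO microglia, against 3011, 3047 and 3247 in the controls (log2 fold change -1.62 ± 0.39, limma adjusted p = 0.188). Both were separated between the groups, as were the cathepsin Ctsl, the tetraspanins Cd63 and Cd9 and the lipase Lpl, with log2 fold changes between -1.36 and -0.95. Spp1, the secreted osteopontin of activated microglia, had 2188, 2677 and 1293 normalized counts in Mof nKO microglia, against 2278, 1335 and 1985 in the controls, and its log2 fold change of 0.11 ± 0.39 turned to -0.02 with edgeR. Of 8 border macrophage genes tested, 1 lay above every control and 0 below. That gene was Dab2, an endocytic adaptor, at 3963, 8642 and 2041 normalized counts in Mof nKO microglia, against 1620, 1729 and 1867 in the controls.

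The C1q chains lay below every Cre control library, as did some lysosomal and sterol-responsive genes. Of 22 complement and phagocyte receptor genes tested, 3 lay above every Cre control library and 4 below. The 3 chains of C1q, which tag material for uptake, were separated. C1qb had 6138, 6101 and 4649 normalized counts in Mof nKO microglia, against 12984, 11462 and 13920 in Cre control microglia (log2 fold change -1.19 ± 0.22, limma adjusted p = 0.188, DESeq2 adjusted p = 0.167). C1qa and C1qc differed by -1.41 ± 0.41 and -1.25 ± 0.39 on the log2 scale. Of 25 lysosomal hydrolase genes tested, 6 lay below every control and 0 above, with a median log2 fold change of -0.72 against -0.50 over all genes. Without 1 library the median ran from -0.96 to -0.29, and without M689 it was -0.29 for the list and -0.29 over all genes. The protease Ctsd, among the most abundant transcripts, had 15853, 15822 and 10824 normalized counts in Mof nKO microglia, against 26628, 23942 and 25761 in the controls (log2 fold change -0.87 ± 0.21). Of 11 genes of the LXR pathway and sterol export tested, 4 lay below every control and 0 above. They included Mylip, the ligase that degrades the LDL receptor, at 649.9, 359.7 and 620.1 normalized counts in Mof nKO microglia, against 1410, 1262 and 1137 in the controls. DESeq2 called 1 gene of this list higher and 0 lower. The higher gene was Scd1, with overlapping groups and a log2 fold change of 10.1 ± 2.38 in the authors' deposited table.

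Some chemokines and cytokines lay above every Cre control library and others below, and of the early response genes some lay below. Of 17 chemokine and cytokine genes tested, 2 lay above every Cre control library and 4 below, with a median log2 fold change of 0.34. Ccl3 and Ccl4, the macrophage inflammatory chemokines made by microglia, had log2 fold changes of -1.51 ± 0.35 and -1.08 ± 0.27 with groups that did not overlap. Il1a, the cytokine interleukin-1 alpha, had 473, 2.84 and 59.1 normalized counts in Mof nKO microglia, against 2395, 1722 and 1906 in Cre control microglia. Cxcl2, which draws neutrophils, had 260.0, 536 and 1391 normalized counts in Mof nKO microglia, against 104, 95.4 and 129 in the controls (log2 fold change 2.40 ± 0.72, DESeq2 adjusted p = 0.026). The lowest Mof nKO library was above the highest control for Cxcl2, and the highest was below the lowest control for Il1a. Of 20 immediate early genes tested, 9 lay below every control and 0 above, with a median log2 fold change of -0.55, close to that of all genes. Klf4, a transcription factor, had 629, 549 and 554 normalized counts in Mof nKO microglia, against 1120, 1521 and 1374 in the controls. Fosl1, an AP-1 subunit, had 1 read in M643 and none in the other 2 Mof nKO libraries, against 45.5, 44.0 and 136 normalized counts in the controls.

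Lipid storage genes were higher for the droplet coat protein Plin2 and the lipid receptor Pparg. Plin2 had 6085, 7746 and 7917 normalized counts in Mof nKO microglia, against 4062, 3698 and 3708 in Cre control microglia (log2 fold change 0.91 ± 0.23, limma adjusted p = 0.191). Pparg had 124, 29.9 and 167 normalized counts in Mof nKO microglia, against 6.86, 0 and 6.46 in the controls (DESeq2 adjusted p = 0.0167). The fatty acid transporter and scavenger receptor Cd36 had 185, 533 and 1782 normalized counts in Mof nKO microglia, against 128, 45.1 and 17.9 in the controls. The 3 genes were separated, but the 18 lipid droplet and PPAR genes tested had 5 above and 3 below every control and a median log2 fold change of 0.04.

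The 10 higher genes with the smallest p and separated groups were Lgals3, Ccr2 and S100a8, described above, Fabp7, described below with the neural markers, and 6 others. Thbs1, the adhesive glycoprotein thrombospondin 1, had 2815, 5744 and 2684 normalized counts in Mof nKO microglia, against 276, 122 and 379 in Cre control microglia (log2 fold change 3.90 ± 0.54, limma adjusted p = 0.188, DESeq2 adjusted p = 7.44e-05). Plbd1, a phospholipase-like protein of granulocytes, had 733, 1479 and 1076 normalized counts in Mof nKO microglia, against 65.5, 98.3 and 59.7 in the controls (log2 fold change 3.84 ± 0.55, DESeq2 adjusted p = 7.47e-07). Cfp, the complement factor properdin, had 741, 1069 and 791 normalized counts, against 64.8, 72.3 and 131 in the controls. Emilin2, an extracellular matrix protein, had 1412, 2916 and 899 normalized counts in Mof nKO microglia, against 148, 145 and 136 in the controls. In these 4 genes each Mof nKO library was several times above each control. The remaining ones were Map1b, a microtubule protein of neurons, and the mitochondrial ribosomal RNA mt-Rnr1, with log2 fold changes of 2.33 ± 0.35 and 2.37 ± 0.36.

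Among the lower genes with the smallest p, 5 had no read in the Mof nKO libraries. Rnf128 and Rnf180, both ubiquitin ligases, the catenin-like Ctnnal1, the phosphodiesterase anchor Pde4dip and the chaperone Dnajb5 were these. Rnf128 had 128, 140.5 and 109 normalized counts in the Cre controls. With each empty library set at 3 reads, it would be 22.8-fold lower in Mof nKO microglia, and the other 4 genes 18.6-fold to 21.2-fold lower. These figures allow for the sampling of reads alone and not for loss in low-input libraries, so they are not smallest effects. The 5 genes passed the filter on the mean through the Cre controls alone. The kinase-like Rps6kc1 and the transaminase Gpt2 had 2 reads and 1 read, both in M643. Of the genes tested, 931, 2724 and 2630 were at 0 in M643, M646 and M689, against 275, 452 and 367 in the Cre controls, so a 0 was more frequent in every Mof nKO library.

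Among markers of other cells, the summed share of neural progenitor genes was higher in every Mof nKO library than in any control. The neural progenitor genes Fabp7 and Hes1, a Notch target, passed DESeq2 and were separated. Fabp7, the fatty acid-binding protein of radial glia, had 949, 1674 and 1414 normalized counts in Mof nKO microglia, against 119.7, 91.4 and 179 in Cre control microglia (log2 fold change 3.38 ± 0.50, limma adjusted p = 0.188). Of 10 neural progenitor markers, 6 passed the filter on low values and 3 lay above every control, while Nes, the gene behind the Cre driver, had 623, 546 and 1513 normalized counts, against 1200, 1483 and 1026 in the controls. The list took 0.0381% to 0.0631% of Mof nKO reads and 0.0280% to 0.0349% of Cre control reads. Erythroid markers took 0.123% of the reads of M689 and at most 0.0122% in the other libraries. Neuron, endothelial and pericyte markers overlapped between the groups in their summed share, at 0.0280% of reads or less. Fibroblast markers were at 0 in every library but Cre203, where they took 0.00185% of reads. The part of admixed cells in the differences above was not tested.

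**Figure D4:**
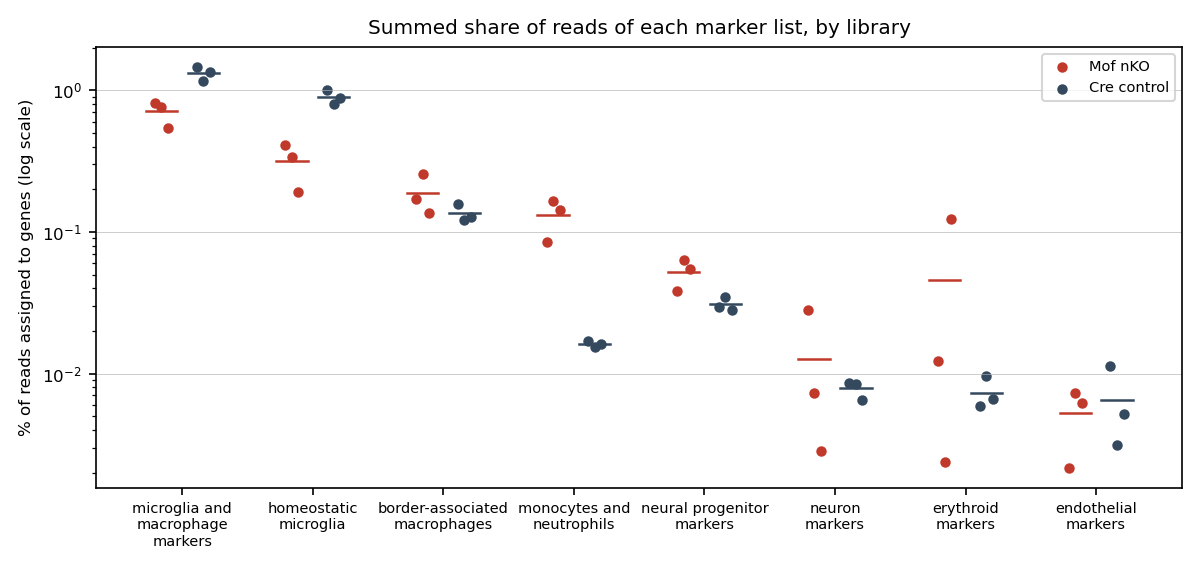
Each point is the summed share of reads of a marker list in 1 microglial library, on a log axis in percent of reads assigned to genes, with group means as short lines and Mof nKO (red) left of Cre control (dark blue). The microglial and homeostatic shares are lower and the monocyte and neutrophil share is higher in every Mof nKO library, and the erythroid share is high in M689 alone.

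Microglial genes were also measured in whole Mof nKO brains, in 3 libraries of each group made with the TruSeq kit and without sorting. There edgeR's quasi-likelihood test called 314 of 16290 genes higher (1.93%) and 658 lower (4.04%). Of the 14 microglia and macrophage markers 7 rose and 0 fell, and of 19 activated genes 8 rose and 0 fell. Spp1 had 138, 128 and 97.9 normalized counts in Mof nKO brains, against 16.7, 5.67 and 6.85 in Cre control brains, and rose by 3.62 ± 0.32 on the log2 scale (adjusted p = 5.29e-05). Gpnmb, a lysosomal glycoprotein, and Clec7a, the receptor dectin-1, rose by 3.87 ± 0.58 and 4.10 ± 0.73. In sorted microglia Spp1, Gpnmb and Clec7a overlapped between the groups.

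The C1q genes went in opposite directions in sorted microglia and in whole brain. C1qb had 96.6, 65.0 and 88.6 normalized counts in Mof nKO brains, against 30.8, 30.8 and 22.5 in Cre control brains, and rose by 1.57 ± 0.20 (edgeR adjusted p = 0.00115), where the sorted value was -1.19 ± 0.22. C1qa and C1qc rose by 1.496 ± 0.24 and 1.63 ± 0.25. Fcrls, of the homeostatic list, rose by 1.04 ± 0.20 (adjusted p = 0.0118), and it was the only one of 12 homeostatic genes described there that did. Lgals3 and Lyz2 were higher in both measurements, rising by 2.72 ± 0.58 and 2.82 ± 0.36 in whole brain. The difference between sorted microglia and whole brain was not tested, and the libraries differ in kit and in sorting.

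**Figure D5:**
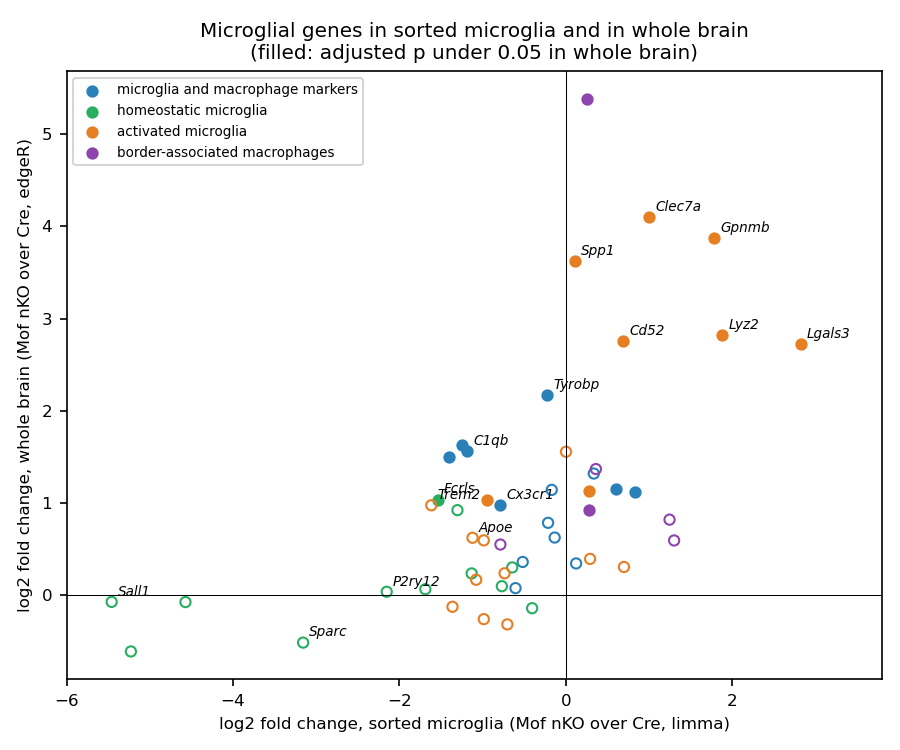
Each point is 1 gene of 4 microglial lists, with its log2 fold change of Mof nKO over Cre in sorted microglia (limma, horizontal axis) and in whole brain (edgeR, vertical axis), and filled points passed the test in whole brain. Lgals3, Lyz2, Gpnmb and Clec7a lie above 0 on both axes, and the C1q genes, Fcrls and Cx3cr1 lie below 0 in sorted microglia and above 0 in whole brain.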

How the data were processed

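RNA was measured in 6 microglial libraries, and sorted neural, endothelial and pericyte libraries and whole brains of the same genotypes gave context. The submitters' processing notes name STAR, featureCounts, DESeq2 and the build mm10 without versions. The deposited microglial values are a signal, gene counts divided by a DESeq2 size factor per library, as the labels name them, and they came out as whole reads for 100% of values above 0 within 0.01 of a whole read. Whole-brain values are the authors' deposited counts per gene. The authors' deposited log2 fold changes and adjusted p-values were used to give their numbers of calls. How the sort and low-input amplification bear on the values was not tested.

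Groups were taken from the labels, with 3 libraries each, between 2215701 and 9817084 reads. The main test was limma's moderated fit with a mean trend on log2(normalized count + 1), over 13141 genes with a mean of at least 10, with Benjamini-Hochberg adjustment at 0.05. Fold changes are on this log2(normalized count + 1) scale, where genes with an empty library can differ more than in a count model (Sall1 -5.46, against -3.81 with DESeq2). Whole brain was tested on counts with edgeR's quasi-likelihood fit. Recovered reads were also tested with edgeR and DESeq2. Each table was fitted alone, since the tables were normalized separately. Summed shares were compared by exact 2-sided permutation.

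The members and the 32 gene lists were chosen with earlier results of these data known. A pair of listed genes is not reported here and was left out of the lists, for reasons unrelated to their values. Genes are named when they are NSL members, the 10 with the smallest p in each direction with a mean of at least 50 and groups that do not overlap (none passed, and sex-linked and predicted genes were left out), up to 4 with the smallest p in each list, or members of the 5 myeloid lists. Alternatives were other pseudocounts, filters, scalings and tools, and leaving out each library. The fits were tested on simulated data. Promoters are from RefSeq. Python 3.11.15 with pandas 2.3.3 and numpy 2.4.6, and R 4.3.3 with limma 3.58.1, edgeR 4.0.16 and DESeq2 1.42.0, were used.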

Additional observations from a re-analysis of the deposited data

Results flagged for a closer look

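For 17 of the 81 named genes tested in both measurements (21.0%), the 3 Mof nKO libraries lay on one side of all Cre controls in sorted microglia and on the other side in whole brain, and 9 of the 17 passed edgeR's test in whole brain. Of all 11146 genes tested in both, 257 (2.31%) were separated in opposite directions, and the named genes were chosen in part for their separation in microglia, so the shares are not alike in kind. The difference itself was not tested, and the tables were normalized separately. None of the 17 passed limma in sorted microglia, where the median log2 fold change of all genes was -0.50. Values below are log2 fold changes of Mof nKO over Cre, in sorted microglia and then in whole brain.

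Of the homeostatic and general microglial genes, Fcrls was -1.54 and 1.04, and Cx3cr1 -0.79 and 0.98. The complement chains C1qa, C1qb and C1qc were -1.41 and 1.496, -1.19 and 1.57, and -1.25 and 1.63. Of the activated genes, Apoe was -1.12 and 0.62, Trem2 -1.62 and 0.98, and Lpl -0.95 and 1.04. The protease Ctsd was -0.87 and 0.43, the ligase Mylip -1.27 and 0.43, and the chemokine Ccl3 -1.51 and 1.84. Of the early and stress response genes, Junb was -0.56 and 0.77, Btg2 -0.71 and 0.35, and Atf3 -0.60 and 3.10. The microglial values of Junb and Atf3 were close to the median of all genes. The other 3 were the glutamate transporter Slc1a3 at 4.86 and -0.35, Thbs1 at 3.90 and -0.70, and Dnajb5, which had no read in Mof nKO microglia and was at 0.34 in whole brain. With each empty library set at 3 reads, Dnajb5 would be 19.4-fold lower in Mof nKO microglia, a figure that allows for the sampling of reads alone. The 9 that passed in whole brain were Fcrls, the 3 C1q chains, Cx3cr1, Lpl, Ctsd, Atf3 and Thbs1.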

How the results depend on the processing

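No paired analysis was possible because the groups compared share no replicate numbers. The number of genes called was 0 under limma with other pseudocounts, filters, array weights or median centring and under edgeR with either scaling, but 270 without the mean trend and 729 with DESeq2. Leaving out 1 library gave 0 to 849 with limma (849 without M643, 1 without M689), 0 to 1 with edgeR and 216 to 2062 with DESeq2. The 2062 were reached without M643, 1753 without M689 and 900 without M646, and 233, 228 and 216 without Cre203, Cre204 and Cre206. A sex term in limma gave 0, with 430 genes at an unadjusted p under 0.05. The sex term, the edgeR and DESeq2 fits without a library and the shares below were chosen after seeing the data. In whole brain the count of 972 was 772 with the 6 libraries alone and 1226 with DESeq2.

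Of 110 named genes, 102 kept the direction of their log2 fold change in every setting. Kansl2, at -0.17, was 0.026 with array weights, 0.21 with median centring, 0.17 and 0.36 with edgeR, 0.35 with DESeq2 and 0.013 with the sex term. Tyrobp and Laptm5 were 0.16 and 0.25 with median centring, and Spp1 was -0.023 with edgeR. Without 1 library, over the 3 tools, Kansl2 ran from -0.95 to 0.75, Kansl3 from -2.30 to 0.28, Gpr34 from -2.26 to 0.12, Kat8 from -3.67 to 0.12, Mrc1 from -1.63 to 0.21 and Spp1 from -0.23 to 0.41. The causes were not tested. In shares of reads outside mitochondrial and ribosomal RNA, the homeostatic list took 0.394% in Mof nKO and 0.972% in Cre control microglia, and the monocyte and neutrophil list 0.166% and 0.0175%.

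With 3 libraries a group, the smallest exact permutation p is 0.1. The shallowest library, M689, has 2215701 reads, and a 0 there is not evidence of absence at this depth.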

Other observations

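Stress and metabolic lists were compared in whole Mof nKO brains and in the sorted cells. Of 22 p53 target genes tested in whole brain, 9 rose and 0 fell. In sorted microglia 3 of 21 lay above every Cre control library and 5 below, with a median log2 fold change of 0.17. DESeq2 called 0 of the list higher and 1 lower in microglia. The lower gene, Gdf15, had no read in the Mof nKO libraries and a mean of 23.9 normalized counts in the Cre controls. Aen, a p53-induced nuclease, had 364, 272 and 505 normalized counts in Mof nKO microglia, against 61.1, 99.5 and 137 in Cre control microglia, and it rose by 1.13 ± 0.13 on the log2 scale in whole brain (edgeR adjusted p = 0.000399). Of 18 integrated stress response genes, 7 rose in whole brain, and in microglia 1 lay above and 3 below every control. Of 26 fatty acid oxidation genes, 8 fell in whole brain, and in microglia 0 lay above and 3 below every control. Of all genes tested, 5.72% lay above and 11.9% below every control in microglia, and 1.93% rose and 4.04% fell in whole brain. The microglial count of fatty acid oxidation genes was near that share. The microglial shares are also the background for the counts that follow. Difference tests between sorted microglia and whole brain were not run.

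The cell cycle list had 2 of 26 genes above every control and 0 below in microglia, and the 2 were the cyclins Ccnd2 and Ccne1. Ccnd2 had 1668, 3695 and 1027 normalized counts in Mof nKO microglia, against 584, 436.1 and 316 in Cre control microglia (log2 fold change 2.10 ± 0.54, limma adjusted p = 0.205). Without 1 library, 2 to 13 genes of the list lay above every control (13 without M689), and its median, 0.016 with all libraries, ran from -0.20 to 0.93. With M689 left out, 17.2% of all genes tested lay above every control, against 5.72% with all libraries. Of 56 respiratory chain genes, 6 lay above every control and 0 below, with a median of 0.12. Without 1 library this count ran from 6 to 20 (20 without M689) and the median from 0.047 to 0.33. The 20 cholesterol synthesis genes had a median of -1.28, which was 0.25 with edgeR, so their direction depended on the test.

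Among Toll-like receptors, Tlr2 had 1200, 1007 and 715 normalized counts in Mof nKO microglia, against 474, 331 and 438 in Cre control microglia, and Tlr8 had 97.1, 512 and 13.1, against 3.74, 0 and 0. Both were separated between the groups, and 4 of 25 genes of that list lay above every control and 1 below.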
